A study of Mus musculus with 4 samples.

Results

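Resident and recruited macrophages of the mouse heart were followed through 10 genes, Csf1r, Cd68, Lyve1, Timd4, Folr2, Cd163, Mrc1, Arg1, Marco and Retnla. The genes were listed by name, as general, resident or recruited macrophage genes, with no value in the rule. The list was, however, made with earlier results of these data known, so it is not independent of them. They are 10 of the 23238 gene symbols measured. Each symbol stood on 1 row of the data, and 8 of the 10 genes had reads in every library.

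Heart macrophages are of mixed origin. Resident macrophages that settled in the tissue early in life carry Lyve1, Timd4 and Folr2 and largely renew themselves, while others are replaced from blood monocytes that enter the tissue and turn into macrophages. All of them depend on signals through the receptor made from Csf1r. Depending on the cytokines around them, macrophages can take on an alternatively activated state, for which Arg1, Retnla and Mrc1 are the classical mouse markers, or increase receptors that clear microbes and debris, such as Marco and Cd163.

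The hearts came from CDF1 mice, male by the study's methods and labelled with an age of postnatal day 28, in 4 groups of 10 mice. The methods give about that age at purchase, before the experiment, so the sampled mice were older than the label says. The normal control group (E-&T-) neither ran nor received tumor cells. The normal exercise group (E+&T-) ran on a treadmill at high intensity, the cancer control group (E-&T+) received CT26 mouse colorectal carcinoma cells through the tail vein without exercise, and the cancer exercise group (E+&T+) had both. The tumor cells thus entered the blood and were not placed in the heart. There was 1 library per group, and whether it held RNA of 1 mouse or of a pool is not given for the heart in the sources used here. Differences between groups therefore have no replicate check, no p-value is given for any of them, and differences between individual mice cannot be told apart from those between the groups.

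Libraries of mRNA 3′ ends were sequenced, which yield about 1 fragment per transcript molecule whatever its length, so that levels of different genes need no correction for length. Reads are PCR copies of these fragments, so shares and ratios between genes are those of reads and not of molecules. The levels below are the deposited log2 values of normalized reads, with a pseudocount of 1. The whole reads behind them were recovered, and they summed to 6595402 in the normal control, 8477117 in normal exercise, 9532886 in the cancer control and 11546008 in cancer exercise. Changes are differences of log2 levels, and the intervals beside them are exact 95% intervals for the ratio of the reads, which cover counting error only. PCR reads are not independent molecules, so the intervals may be too narrow even for that error. A gene was called when it had at least 4 normalized reads in at least 1 of the 2 libraries and changed at least 2-fold. The cancer exercise library stood apart, in that hemoglobin genes took 37.3% of its reads against 7.86% to 8.76% in the others. The summed cardiomyocyte markers lay between 381000 and 431000 normalized reads in the 4 libraries, with none of the 8 genes at 0 reads in any, so the defining markers of heart muscle were present throughout.

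Promoter windows of 250 bases before and 50 bases from the start of transcription were held by RefSeq tables (GRCm38.p6, the build of the deposited data) for 7 of the 10 genes. Those of 3 genes are printed here as examples, of a gene nearly absent without tumor (Marco), a resident gene that was higher in the cancer control (Cd163) and a gene that was lower there (Retnla). Capitals mark matches, on either strand, to motifs of factors known from macrophages. The ETS motif, which the macrophage factor PU.1 binds, was searched as GAGGAA, and the AP-1 motif as TGANTCA. The motif of C/EBP factors was searched as TTGCNNAA. The motif shared by most STAT factors was searched as TTCNNNGAA, and the one preferred by STAT6, with a longer spacer, as TTCNNNNGAA. The hypoxia motif bound by HIF was searched as ACGTG, and the TATA box, where transcription starts are set, as TATAAA. The windows are Marco at chr1:120504975-120505274 on the minus strand, Cd163 at chr6:124304401-124304700 on the plus strand and Retnla at chr16:48842359-48842658 on the plus strand.
Marco: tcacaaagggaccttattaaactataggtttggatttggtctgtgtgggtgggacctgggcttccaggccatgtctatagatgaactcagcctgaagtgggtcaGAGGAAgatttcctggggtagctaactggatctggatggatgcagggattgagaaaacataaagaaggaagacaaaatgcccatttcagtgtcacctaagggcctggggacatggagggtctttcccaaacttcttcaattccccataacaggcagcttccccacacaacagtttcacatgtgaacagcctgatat
Cd163: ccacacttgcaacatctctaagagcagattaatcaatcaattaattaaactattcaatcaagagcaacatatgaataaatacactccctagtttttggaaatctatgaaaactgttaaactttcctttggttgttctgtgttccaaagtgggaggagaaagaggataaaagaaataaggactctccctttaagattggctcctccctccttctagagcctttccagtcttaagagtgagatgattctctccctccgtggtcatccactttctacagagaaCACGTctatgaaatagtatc
Retnla: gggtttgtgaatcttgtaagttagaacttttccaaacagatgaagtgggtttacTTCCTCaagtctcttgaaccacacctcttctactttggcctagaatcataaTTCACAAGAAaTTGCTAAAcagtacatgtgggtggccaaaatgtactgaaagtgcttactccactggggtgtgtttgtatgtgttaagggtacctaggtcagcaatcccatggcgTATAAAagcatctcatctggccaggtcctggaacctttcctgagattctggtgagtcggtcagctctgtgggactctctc
The Retnla window held a match to the STAT6 motif at −145 from the start, followed after 1 further base by one to the C/EBP motif at −134, an ETS match at −196 and a TATA box at −30. These motifs were present in 6.95% (STAT6), 10.8% (C/EBP), 28.3% (ETS) and 13.6% (TATA box) of all 32851 promoter windows. The Marco window held 1 ETS match, at −146, and the Cd163 window 1 HIF match, at 31, a motif found in 19.6% of all windows. No match of this set overlapped another. Among the other members, the Mrc1 window held 3 ETS matches, and that of Cd68 held 2 ETS matches, 2 AP-1 matches (7.81% of all windows) and 1 C/EBP match. Folr2 had more than 1 window, of which 1 held an AP-1 match. The Timd4 window held none of these letters, and the general STAT motif (8.3% of all windows) was in no member's window. The matches describe the letters in these windows and do not show that a factor binds there.

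Csf1r encodes the receptor for the growth factors CSF1 and IL-34, on which macrophages depend for survival. Its level was 9.97 in the normal control, 9.95 in normal exercise, 9.86 in the cancer control and 9.27 in cancer exercise, from 875, 1091, 1052 and 563 reads. The first 3 libraries could not be told apart within counting error, with changes of −0.02 (−0.15 to 0.11) under exercise and −0.11 (−0.24 to 0.02) with tumor. From the cancer control to cancer exercise the change was −0.59 (−0.74 to −0.44), short of 2-fold, but −1.18 with the library total as the scale. An exon of Csf1r overlaps one of Hmgxb3 on the other strand, which gave 41 to 68 reads per library, and whether the counting used the strand is not given in the sources used here.

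Cd68 (chr11:69664213-69666170) encodes a glycoprotein of the lysosomes of macrophages. Its level was 6.50 in the normal control, 6.46 in normal exercise, 8.36 in the cancer control and 6.71 in cancer exercise, from 78, 96, 371 and 95 reads. The cancer control heart was the high one, 3.63-fold above the normal control (log2 1.86, 1.52 to 2.24), and the other 3 libraries lay within counting error of their neighbours in the order. Per Csf1r read there were 0.0891 Cd68 reads in the normal control and 0.088 in normal exercise, against 0.353 (0.312 to 0.397) in the cancer control and 0.169 (0.134 to 0.21) in cancer exercise. The general macrophage genes thus did not keep a fixed ratio to each other. In whole tissue, fewer cells of a type and less RNA per cell cannot be told apart.

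Lyve1 (chr7:110850607-110862953) encodes a hyaluronan receptor of resident macrophages along vessels, and is also made by lymphatic endothelium. Its level was 8.56 in the normal control, 9.32 in normal exercise, 10.71 in the cancer control and 10.58 in cancer exercise, from 328, 703, 1894 and 1399 reads. Both tumor-bearing hearts lay above both tumor-free hearts, and no neighbours in this order overlapped within counting error. Tumor without exercise came with a 4.43-fold higher level (2.15, 1.98 to 2.33), and tumor with exercise with a 2.4-fold higher level than exercise alone (1.27, 1.13 to 1.40). The last value was 0.55 with the library total as the scale, which ends the call. Exercise alone gave a change of 0.76 (0.57 to 0.95), which did not reach 2-fold. The markers of lymphatic endothelium, Prox1, Pdpn, Flt4, Ccl21a, Reln and Mmrn1, summed to 794, 996, 1110 and 794 normalized reads in the same order of libraries, with all 6 genes detected in each. Their part in the Lyve1 values was not tested.

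Timd4 (chr11:46810786-46844333) encodes a receptor for phosphatidylserine on dying cells and marks the self-renewing resident macrophages. It was the scarcest resident gene, with levels of 5.22 in the normal control, 4.18 in normal exercise, 3.91 in the cancer control and 3.71 in cancer exercise. The reads behind them were 32, 19, 16 and 11. The normal control heart had the highest level, and the other 3 did not differ from their neighbours beyond counting error. The change was −1.04 (−1.99 to −0.23) with exercise alone and −1.32 (−2.34 to −0.47) with tumor alone. At these read numbers, the difference between both tumor-bearing hearts was not resolved (−0.19, −1.48 to 0.97).

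Folr2 (chr7:101839988-101857190) encodes folate receptor beta of resident macrophages. It had the smallest span of the members, 0.56 log2 units, with levels of 7.40 in the normal control, 7.42 in normal exercise, 7.43 in the cancer control and 6.87 in cancer exercise from 146, 188, 194 and 106 reads. The first 3 were within counting error of each other, with a change of 0.03 (−0.29 to 0.35) in the sedentary tumor-bearing heart. The sign of that value depends on the scaling, since it is −0.12 when reads are scaled by the library total. From the cancer control to cancer exercise the change was −0.56 (−0.92 to −0.21). An exon of Folr2 overlaps one of Gm10602 on the other strand.

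Cd163 (chr6:124304636-124330529) encodes the scavenger receptor that takes up hemoglobin bound to haptoglobin. Its level was 7.99 in the normal control, 7.69 in normal exercise, 9.55 in the cancer control and 8.40 in cancer exercise, from 221, 228, 847 and 308 reads. The cancer control heart was 2.94-fold above the normal control (1.56, 1.34 to 1.78), and the cancer exercise heart was 2.22-fold below the cancer control (−1.15, −1.34 to −0.96). Against normal exercise, the cancer exercise heart was at 0.71 (0.46 to 0.96), a value that becomes −0.01 with the library total as the scale.

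Mrc1 (chr2:14229414-14332023) encodes the mannose receptor CD206 of resident and alternatively activated macrophages. Its level was 8.17 in the normal control, 8.32 in normal exercise, 9.31 in the cancer control and 8.04 in cancer exercise, from 251, 353, 720 and 240 reads. Like Cd68 and Cd163, it was highest in the cancer control heart, 2.2-fold above the normal control (1.14, 0.93 to 1.36). With the library total, with or without the genes over 1% of reads, that value was 0.99, just short of a call. The cancer exercise heart was 2.41-fold below it (−1.27, −1.49 to −1.06) and within counting error of the normal control, which lay above it by 0.13 (−0.13 to 0.39).

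Arg1 (chr10:24915207-24927470) encodes arginase 1, which turns arginine into ornithine and urea in alternatively activated macrophages and in liver. Arg1 had 0 reads in the normal control, 2 in normal exercise, 444 in the cancer control and 32 in cancer exercise, with levels of 0.30, 1.40, 8.62 and 5.18. Both tumor-free hearts were under the floor of 3 reads. Against 3 reads in the normal control, the cancer control heart was at least 114-fold higher (log2 6.83), and the exact interval of the ratio, which takes in the counting error of both libraries, starts at 6.53. The difference of the deposited levels, 8.32, was the largest among the 14311 genes compared, a rank that rests on the pseudocount. Within the tumor-bearing hearts, the exercised one was 10.9-fold lower (−3.45, −4.05 to −2.97), and it was above normal exercise by 3.77 (2.30 to 7.38).

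Marco (chr1:120474538-120505024) encodes a class A scavenger receptor for bacteria and particles. It gave 1 read in the normal control, 0 in normal exercise, 376 in the cancer control and 11 in cancer exercise, with levels of 1.26, 0.00, 8.38 and 3.72. The pattern was that of Arg1, with near absence in both tumor-free hearts. The cancer control heart was above the normal control by 7.13 (5.69 to 13.48), the third largest difference of deposited levels among the 14311 genes, a rank that also rests on the pseudocount, since the value is 5.97 with a pseudocount of 4. The cancer exercise heart was 25.3-fold below the cancer control (−4.66, −5.80 to −3.93), the third lowest of 14357 genes. It was at least 4.44-fold above normal exercise against 3 reads there (log2 2.15), where the exact interval of the ratio starts at 1.60. Arg1 and Marco stood at 1.18 Arg1 reads per Marco read (1.03 to 1.36) in the cancer control heart and at 2.91 (1.43 to 6.4) in the cancer exercise heart.

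Retnla (chr16:48842609-48844461) encodes RELM alpha, a secreted protein that IL-4 and IL-13 induce in macrophages through STAT6. Its level was 8.54 in the normal control, 9.03 in normal exercise, 4.13 in the cancer control and 6.32 in cancer exercise, from 323, 577, 19 and 72 reads. Both tumor-free hearts were high and the cancer control heart was lowest, the other way round from Arg1, although both are markers of the alternatively activated state. Tumor without exercise came with a 21.2-fold lower level (−4.40, −5.22 to −3.80), rank 21 from the bottom of 14311 genes. The cancer exercise heart was 4.56-fold above the cancer control (2.19, 1.49 to 3.04) and still 6.55-fold below normal exercise (−2.71, −3.10 to −2.37). Exercise alone gave 0.50 (0.30 to 0.70).

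**Figure D1:**
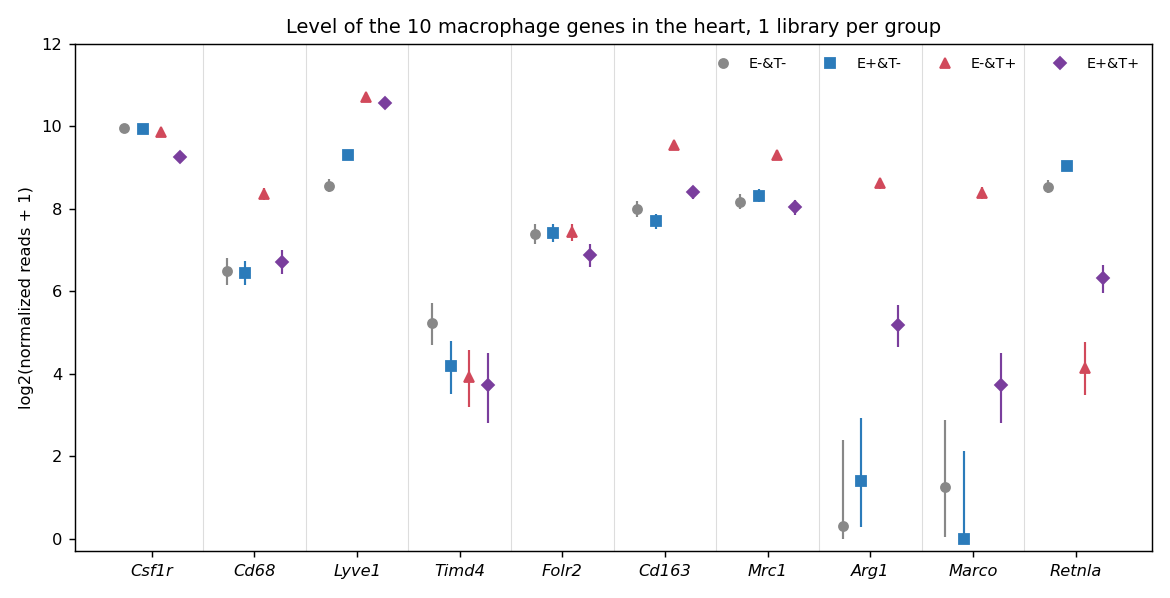
Level of each of the 10 macrophage genes (log2 of normalized reads plus 1) in the 4 heart libraries, 1 per group; points are the deposited values and lines exact 95% Poisson intervals of the reads. Arg1 and Marco stand near 0 in both tumor-free hearts and at 8.62 and 8.38 in E-&T+, where Retnla has its lowest level, 4.13.

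The comparison of normal exercise with normal control asks what high-intensity exercise does in the heart of a mouse without tumor. Most members stayed within 2-fold. None of the 8 members that passed the count minimum was called higher, where 5.88% of the 13930 genes compared were, and 1 was called lower, Timd4, where 6.40% of all genes were. Arg1 and Marco stayed under the minimum. The median change of the 8 genes was 0.00, as was that of all genes. Apart from Timd4, the intervals that left out 0 were those of Lyve1, at 0.76, Retnla, at 0.50, and Cd163, at −0.30 (−0.57 to −0.02), all under 2-fold.

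The comparison of cancer control with normal control asks what the tumor does in the sedentary heart. Of the 10 members, 6 were called higher, Cd68, Lyve1, Cd163, Mrc1, Arg1 and Marco, where 14.6% of 14311 genes were. Timd4 and Retnla were called lower, 2 members, where 13.1% of all genes were. Csf1r and Folr2 were not called. The median change of the members was 1.35 and that of all genes −0.01. Within the resident genes the directions differed, with Lyve1 at 2.15, Cd163 at 1.56, Mrc1 at 1.14, Folr2 at 0.03 and Timd4 at −1.32.

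The comparison of cancer exercise with cancer control asks what exercise does in the heart of a tumor-bearing mouse. Cd68, Cd163, Mrc1, Arg1 and Marco, 5 members, were called lower, where 10.0% of 14357 genes were, and 1 member, Retnla, was called higher, where 9.39% were. This comparison shares the cancer control library with the comparison before, so the changes of both rest on the same values. Lyve1 was at −0.13 (−0.23 to −0.03). The median change of the members was −0.87 and that of all genes −0.01. With the library total as the scale these medians were −1.45 and −0.60, the total including the hemoglobin reads. On that scale Csf1r (−1.18) and Folr2 (−1.14) passed 2-fold too, which made 7 members lower and 1 higher. The median of all genes on that scale was −0.17 in cancer control vs normal control, with 5 members higher and 2 lower, and −0.74 in cancer exercise vs normal exercise. The shares of all genes called on that scale are not given, so the member counts on it have none to be set against.

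The comparison of cancer exercise with normal exercise gives the difference that came with the tumor when both groups exercised. Lyve1, Arg1 and Marco, 3 members, were called higher, where 12.0% of 14282 genes were, and 1 member, Retnla, was called lower, where 11.1% were. Csf1r stood at −0.68 (−0.83 to −0.53), Folr2 at −0.55 (−0.91 to −0.20), Mrc1 at −0.28 (−0.53 to −0.04) and Timd4 at −0.47 (−1.73 to 0.63). Cd68 was at 0.26 (−0.17 to 0.68), which turns to −0.46 with the library total as the scale. With the library total as the scale 2 members were called higher and 4 lower, since Lyve1 (0.55) lost its call and Csf1r (−1.40), Folr2 (−1.26) and Timd4 (−1.14) passed 2-fold. The median of all genes was −0.74 on that scale, and the share of all genes called on it is not given. On the deposited scale the median of the members, −0.01, equalled that of all genes.

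**Figure D2:**
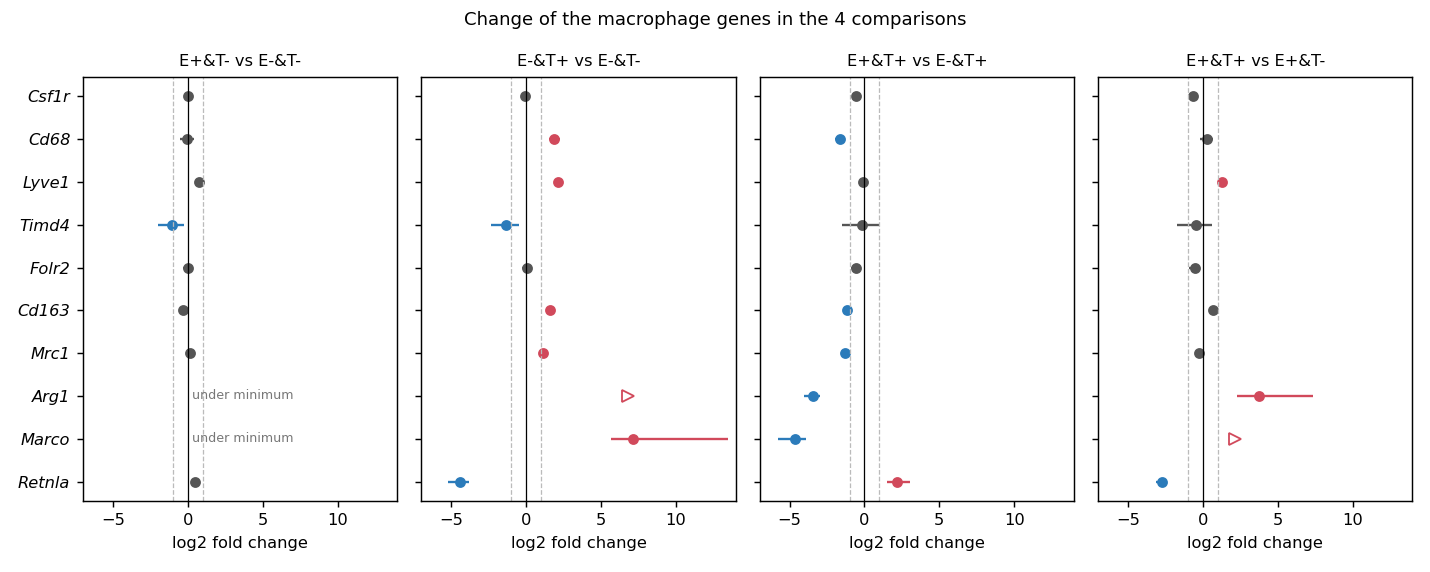
Log2 fold changes of the members in the 4 comparisons, with exact 95% intervals of the ratio of reads (lines), the 2-fold limits (dashed) and called genes in red (higher) or blue (lower); open triangles are lower bounds against 3 reads where the second library had 0. In E-&T+ vs E-&T-, Arg1 and Marco lie farthest right and Retnla, at −4.40, farthest left, and in E+&T+ vs E-&T+ Marco, at −4.66, and Arg1, at −3.45, lie farthest left.

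The difference between both exercise changes, with tumor minus without tumor, was −1.60 for Cd68, −1.42 for Mrc1, −0.85 for Cd163, −0.88 for Lyve1, −0.57 for Csf1r and −0.58 for Folr2. Arg1 stood at −4.55 and Marco at −3.40, both with fewer than 3 reads in each tumor-free heart, and Retnla at 1.69 and Timd4 at 0.85. With 1 library per group these differences were not tested.

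The make-up of the macrophage gene reads differed between the libraries. The 10 genes together gave 2255 reads in the normal control, 3257 in normal exercise, 5933 in the cancer control and 2837 in cancer exercise. Csf1r led in both tumor-free hearts, with 38.8% of these reads (95% exact binomial interval 36.8 to 40.8) in the normal control and 33.5% (31.9 to 35.1) in normal exercise, and held 17.7% and 19.8% in the tumor-bearing hearts. Lyve1 took its place there, with 31.9% (30.7 to 33.1) in the cancer control and 49.3% (47.5 to 51.2) in cancer exercise, from 14.5% in the normal control and 21.6% in normal exercise. Retnla went from 14.3% in the normal control and 17.7% in normal exercise to 0.32% in the cancer control and 2.54% in cancer exercise, and Arg1 and Marco made up 7.48% and 6.34% of the cancer control reads.

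**Figure D3:**
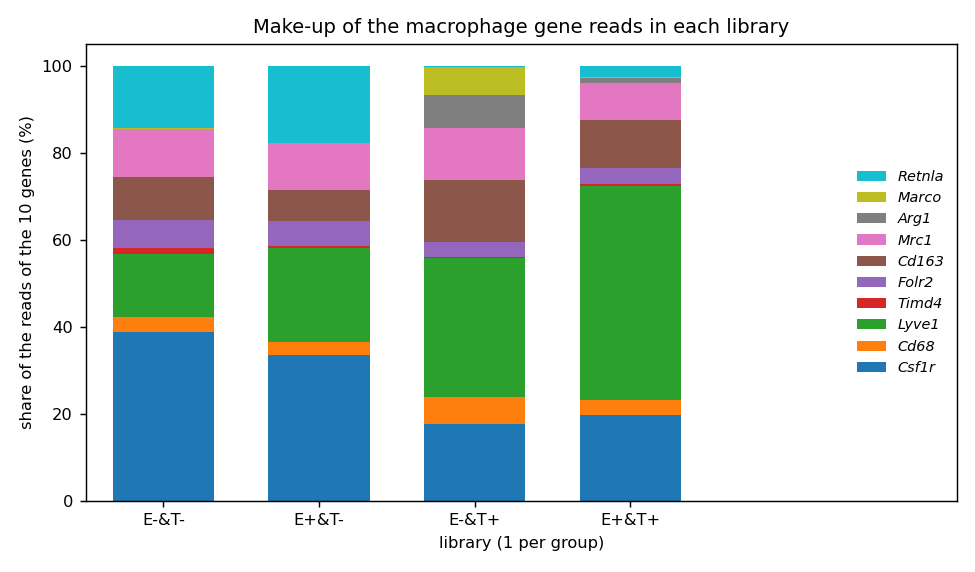
Share of each member in the reads of the 10 macrophage genes (%), as stacked bars, 1 library per group. Csf1r is the largest share in E-&T- and E+&T- and Lyve1 in E-&T+ and E+&T+, where it reaches 49.3%.

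Ratios of reads within a library do not depend on how the libraries are scaled. Per Csf1r read, Folr2 gave 0.167, 0.172, 0.184 and 0.188 reads in the normal control, the normal exercise, the cancer control and the cancer exercise heart, with intervals that all overlapped, the widest from 0.152 to 0.232. Folr2 and Csf1r therefore kept their ratio within counting error in all 4 hearts. Lyve1 gave 0.375, 0.644, 1.8 and 2.48 reads per Csf1r read, none of whose intervals overlapped. Cd163 gave 0.253, 0.209, 0.805 and 0.547, and Mrc1 0.287, 0.324, 0.684 and 0.426. Per Csf1r read, Cd163 was thus still higher in the cancer exercise heart (0.475 to 0.63) than in either tumor-free heart, while the interval of Mrc1 (0.365 to 0.497) met that of the normal exercise (0.286 to 0.365). Per Csf1r read, Timd4 gave 0.0366 reads in the normal control and between 0.0152 and 0.0195 in the other libraries. Lyve1 reads per Timd4 read went from 10.2 (7.12 to 15.2) in the normal control to 37 in normal exercise, 118 in the cancer control and 127 (70.9 to 255) in cancer exercise. Per Mrc1 read, Retnla gave 1.29 reads in the normal control and 0.0264 (0.0158 to 0.0415) in the cancer control.

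**Figure D4:**
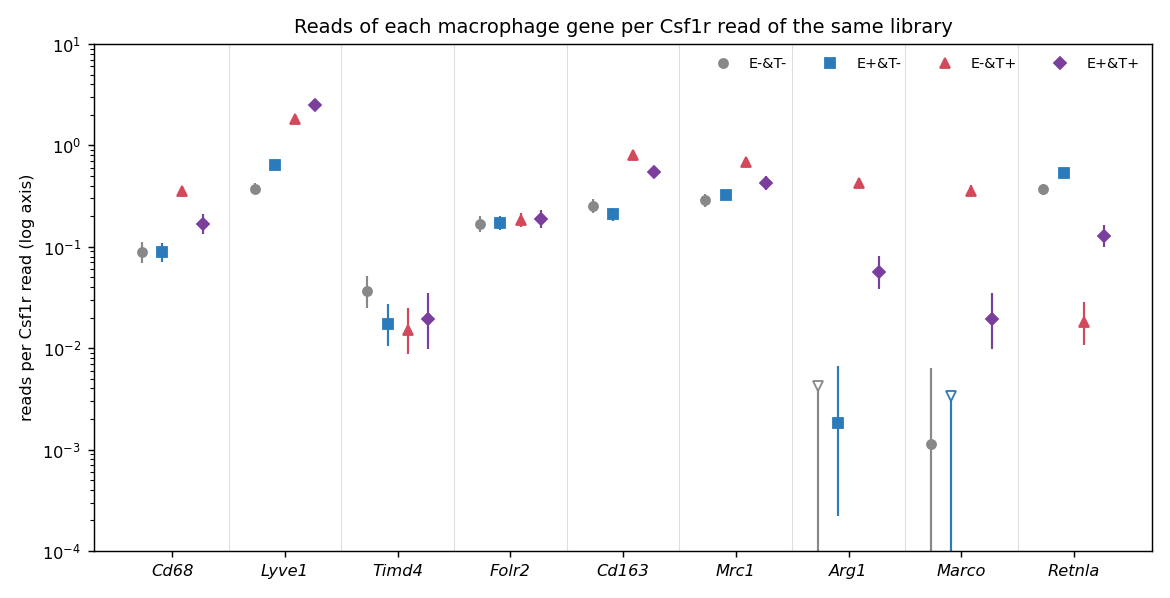
Reads of each other member per Csf1r read of the same library, on a log axis, with exact 95% intervals; open triangles are upper limits where a gene had 0 reads. Folr2 stays between 0.167 and 0.188 in the 4 libraries, while Lyve1 climbs from 0.375 in E-&T- to 2.48 in E+&T+.

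Other macrophage genes were set beside the members. Over all genes, 14.6% were called higher and 13.1% lower in cancer control vs normal control, and 9.39% and 10.0% in cancer exercise vs cancer control. The shares were 5.88% and 6.40% in normal exercise vs normal control, and 12.0% and 11.1% in cancer exercise vs normal exercise. They hold for every list named below. Of 25 other general macrophage genes, 18 were called higher and 0 lower in cancer control vs normal control, with a median change of 1.54, and 1 was called higher and 11 lower in cancer exercise vs cancer control, with a median of −0.98. C1qa, C1qb and C1qc, the chains of the complement protein C1q that tissue macrophages make, were at 1.46, 1.77 and 1.61 in the first of these comparisons and at −0.65, −0.63 and −1.06 in the second. In the first, 23 of the 25 changes were above 0. Adgre1, with levels of 5.87 in the normal control and 5.49 in the cancer control, and Cx3cr1, with 7.17 and 6.88, went the other way without a call. Of the 25 genes 2 were called in normal exercise vs normal control, both higher, with a median over 24 genes of 0.45. In cancer exercise vs normal exercise 4 were called higher, Fcer1g, Cd14, Msr1 and Lgals3, and 2 lower, Adgre1 and Fcgr1, with a median of 0.27.

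Of 20 other genes of resident macrophages, 11 were called higher and 3 lower in cancer control vs normal control (median 1.03). The 3 lower ones were Mgl2, Siglec1 and Cd209f, with 67, 4 and 28 reads in the normal control, so the list was mixed in direction like the resident members. Pf4, a platelet factor that heart macrophages also make, was at 2.13, Gas6, a bridging molecule for the uptake of dying cells, at 1.08, and Sepp1, a selenium carrier, at 0.45. In cancer exercise vs cancer control, 1 was called higher and 7 lower (median −0.72), with Pf4 at −0.68, Gas6 at −1.02 and Sepp1 at −0.76. In normal exercise vs normal control 3 were called higher and 0 lower (median 0.27), and in cancer exercise vs normal exercise 3 higher and 4 lower (median −0.16).

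Most genes of recruited monocytes were higher in the sedentary tumor-bearing heart. Of 15, 12 were called higher and 0 lower in cancer control vs normal control (median 2.44), and 9 were called higher and 0 lower in cancer exercise vs normal exercise (median 1.42). S100a4, a calcium-binding protein of motile cells, was at 3.90, Hp, the haptoglobin that CD163 recognises, at 3.19, and Fn1, fibronectin, at 1.75 in cancer control vs normal control. In cancer exercise vs cancer control, 0 were called higher and 4 lower (median −0.48), among them S100a4 at −2.17 and Fn1 at −1.79, while Hp stood at 1.0. In normal exercise vs normal control, 3 of 14 were called higher and 1 lower (median 0.17). Fibroblasts also make S100a4 and Fn1, and the summed fibroblast markers were 25300, 30200, 55000 and 32000 normalized reads in the normal control, the normal exercise, the cancer control and the cancer exercise heart. Their part in these values was not tested. Hp gave 47, 63, 571 and 922 reads in the same order of libraries, highest in cancer exercise, as were the sums of neutrophil and liver markers given below. The part of neutrophils and liver in the Hp values was not tested. Ccr2, the receptor by which monocytes leave the marrow, gave 20 to 30 reads in every library. Ly6c2 gave 142, 148, 254 and 269 reads in the same order of libraries. Neither gene was called in cancer control vs normal control, while Ly6c2 was called higher in cancer exercise vs normal exercise. Whether monocytes entered the heart was not tested.

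Other genes of alternative activation, 14 in all, were listed beside the members. Of these, 10 could be compared in cancer control vs normal control, of which 1, the IL-4 receptor gene Il4ra, was called higher, against 14.6% of all genes, and 0 lower (median 0.34). Tgm2, transglutaminase 2, was at 0.99, Socs2, a brake on cytokine signals, at 0.87, and Klf4, a transcription factor of monocytes and many other cells, at 0.47. In cancer exercise vs cancer control 1 of 11, Il10, was called higher and 0 lower (median −0.05). In normal exercise vs normal control 0 of 10 were called higher and 1 lower (median 0.11), and in cancer exercise vs normal exercise 3 of 11 higher and 1 lower (median −0.10), against 12.0% and 11.1% of all genes.

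Around Csf1r, the ligand gene Csf1 gave 150, 199, 110 and 73 reads in the normal control, the normal exercise, the cancer control and the cancer exercise heart. Its change was −0.82 (−1.19 to −0.46) with tumor alone and −1.16 (−1.58 to −0.78) with tumor under exercise, where it was called lower. Of 10 genes of the CSF receptors, ligands and their transcription factors, 3 of 8 compared were called higher and 0 lower in cancer control vs normal control, one of them Cebpb at 1.11. Over all genes 14.6% were called higher and 13.1% lower in that comparison, near the counts of the arginine and scavenger receptor lists below. Around Arg1, 1 of 9 arginine and polyamine genes compared was called higher and 1 lower in cancer control vs normal control, and 0 of 8 in either direction in cancer exercise vs cancer control. Arg2, the second arginase gene, was at 0.46 and 0.07 in these comparisons, against the changes of Arg1 given above. Around Marco, 2 of 10 scavenger receptor genes compared were called higher, Msr1 and Scara3, and 1 lower, Stab2, in cancer control vs normal control, and 0 were called higher and 3 lower in cancer exercise vs cancer control. Cd36, a fatty acid carrier and the most abundant of that list, was at −0.11 and 0.51.

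**Figure D5:**
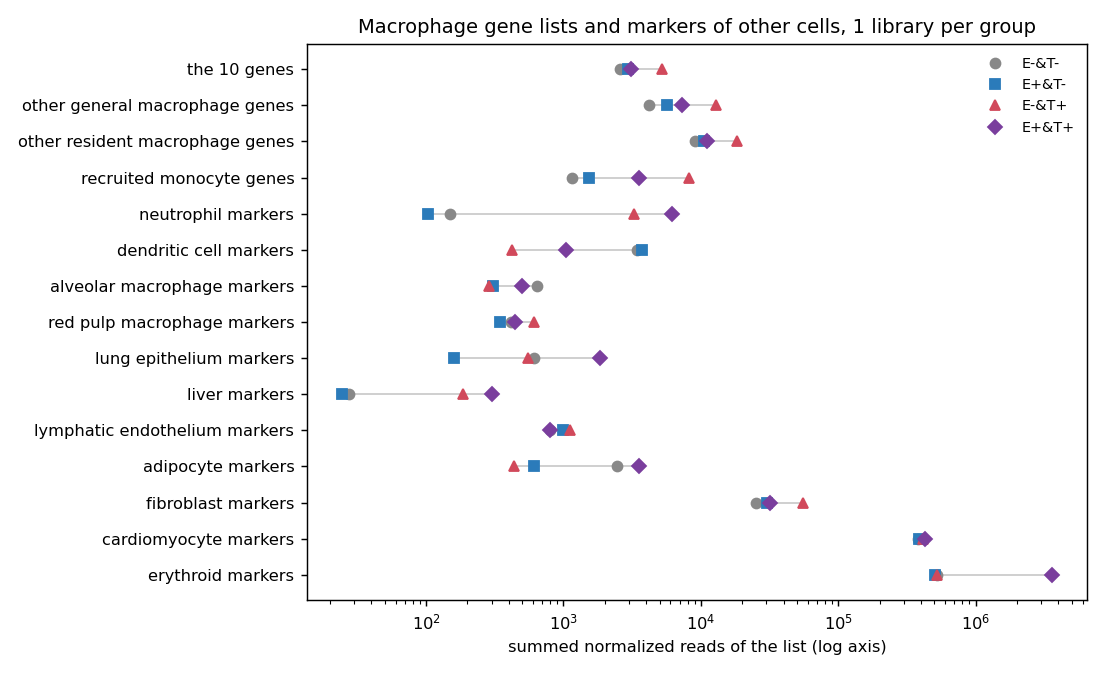
Summed normalized reads (log axis) of the 10 macrophage genes, of other macrophage and monocyte gene lists and of markers of other cell types in the 4 libraries, 1 per group. The 10 genes sum to 2585, 2946, 5236 and 3103 in the normal control, the normal exercise, the cancer control and the cancer exercise heart. The sum of the dendritic cell markers, which include MHC class II genes, is lowest in E-&T+. The sums of the neutrophil and erythroid markers are highest in E+&T+.

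Markers of other tissues and cells bear on members that are not made by heart macrophages alone. For Marco, which macrophages of lung alveoli make, the 9 alveolar macrophage markers summed to 639, 307, 289 and 502 normalized reads in the normal control, the normal exercise, the cancer control and the cancer exercise heart, mostly from Car4 and Cidec, of which Cidec is an adipocyte marker as well. The defining marker Siglecf gave 1 read in the cancer control and 0 elsewhere, and Fabp1 gave 0 reads in every library. Atp6v0d2, of the same list, gave 7, 3, 14 and 1 reads in the same order of libraries, highest in the cancer control like Marco. In cancer exercise vs cancer control, 3 of the list were compared, of which Atp6v0d2 was called lower and Cidec higher. The part of alveolar macrophages in the Marco values was not tested. The 8 lung epithelium markers summed to 615, 159, 553 and 1850, highest in the cancer exercise heart, in which Marco was at 11 reads. For Arg1, which liver makes in quantity, the 8 liver markers summed to 27.4, 24.6, 187 and 302 normalized reads, also highest in the cancer exercise heart. The liver urea cycle genes Cps1 and Otc gave at most 2 reads in any library. Of 5 liver markers compared in cancer control vs normal control, 4 were called higher, Alb, Ttr, Serpina1a and Fgb, and 0 lower (median 2.42). The part of liver in the Arg1 values was not tested. The 5 markers of red pulp macrophages of the spleen summed to 413, 343, 614 and 441, with Spic at 1 or 2 reads and Treml4 at 0 in each library. In cancer control vs normal control, Hmox1 of that list was called higher (3.82) and Slc40a1 lower (−1.20). Both were called the other way in cancer exercise vs cancer control, at −1.56 and 1.31. The part of red pulp macrophages in the values of the members was not tested.

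Neutrophil markers, 12 genes led by S100a8 and S100a9, summed to 150, 104, 3280 and 6190 normalized reads in the normal control, the normal exercise, the cancer control and the cancer exercise heart. The sum was highest in cancer exercise and Arg1 in the cancer control, and the part of neutrophils in the values of the members was not tested. For Retnla, which fat tissue also makes, the 8 adipocyte markers summed to 2470, 610, 437 and 3550, with Ucp1 at 814 reads in cancer exercise and 0 in the other libraries. Of 7 adipocyte markers compared, 7 were called lower in cancer control vs normal control (median −3.74) and 7 higher in cancer exercise vs cancer control (median 3.65), the directions in which Retnla was called there. In normal exercise vs normal control 7 were called lower (median −2.35), with Retnla at 0.50, and in cancer exercise vs normal exercise 5 were called higher (median 2.45), with Retnla at −2.71. The part of fat tissue in the Retnla values was not tested.

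Antigen presentation genes were, like Retnla, lowest in the cancer control and next lowest in cancer exercise. The 9 dendritic cell markers, which include genes of MHC class II that macrophages share, summed to 3430, 3730, 421 and 1050 normalized reads in the normal control, the normal exercise, the cancer control and the cancer exercise heart. Of 8 compared in cancer control vs normal control, 5 were called lower. Zbtb46, of the same list, was called higher there, with 15, 22, 66 and 33 reads in the same order of libraries. Whether dendritic cells were fewer was not tested. H2-Aa was at −3.44 (−3.69 to −3.21) and Cd74 at −2.98 (−3.35 to −2.64) in cancer control vs normal control, and at 1.70 and 1.38 in cancer exercise vs cancer control. Retnla stood at −4.40 and 2.19 in these comparisons, and whether the same cells carry both was not measured.

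Genes averaging 16 or more normalized reads, 11633 in all, were ranked by their likeness to each member. The closest in pattern over the 4 libraries were found by the root mean square difference of centred log2 levels. For Retnla they were G630090E17Rik (0.26), H2-Ea-ps (0.32) and Fcrls (0.34), of which H2-Ea-ps is an MHC class II pseudogene and Fcrls a gene of macrophages. For Arg1 they were Serpina3n (0.77), Nfasc (0.84) and Lcn2 (0.96), of which Serpina3n and Lcn2 are acute phase genes of inflamed tissue. For Marco they were Cntn1 (0.95), Arg1 (0.99) and Nfasc (1.09). Serpina3n, Nfasc and Lcn2 were each nearer to Arg1 than Marco was. With 0 to 2 reads of Arg1 and Marco in the tumor-free hearts, these distances rest on the pseudocount, as the ranks above do. The order of these neighbours is therefore not resolved. The other members had much closer neighbours, as is easily met with 4 points. Cd68 lay nearest to Phf7 (0.04), Mmp2 (0.09) and Apbb1ip (0.10), Mrc1 to Neb (0.05), Cd44 (0.05) and Arrdc3 (0.06), and Cd163 to Slc35b3 (0.06), E130102H24Rik (0.07) and Dph1 (0.09). Lyve1 lay nearest to Cdc6 (0.07), Cdk1 (0.08) and Eif1a (0.08), the first pair of which are cell cycle genes, and Timd4 to Acly (0.07), Zfp27 (0.07) and Fadd (0.09). Csf1r and Folr2 spanned less than 1 log2 unit and were not compared.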

How the data were processed

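Hearts of 4 groups of mice were profiled by 3′ end mRNA sequencing, with 1 library per group and groups taken from the sample titles. By the study's methods and processing notes, the authors used Bowtie2 for alignment (mm10), bedtools for the counts of each gene and edgeR's quantile method for normalization, with tool versions not given in the sources used here. The deposited values are log2 of the normalized read count plus 1, for 23282 rows and 23238 symbols, of which 17174 rows had a read. Changes are differences of deposited values, and the authors' limits of 2-fold and 4 normalized reads define a call.

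Whole reads were recovered by inverting that normalization, which needs 1 dispersion for all genes (fitted as 0.149) and the relative sizes of the libraries. Values computed anew from these reads differed by at most 0.000505 from the deposited ones, and 100% of the 25460 values of 5 to 99 reads came within 0.1 of a whole read. No count test was run, since 1 library per group leaves no spread to estimate. Intervals are exact at 95% (Poisson for reads, Clopper-Pearson for shares and ratios). Depth ran from 6595402 to 11546008 reads, at which 3 reads stand for 0.455 to 0.26 CPM. The recovery and the call rule were tested on simulated data.

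The members and the other gene lists were chosen with earlier results of these data known. From each other list, the 3 genes with the highest mean of at least 16 normalized reads were named, and others where a short count was spelled out, after their values were seen. For each member spanning at least 1 log2 unit, the 3 genes nearest in pattern were named. Promoter windows and positions come from RefSeq and GENCODE for GRCm38. The software was matplotlib 3.10.9, pandas 2.3.3, scipy 1.17.1 and numpy 2.4.6 in Python 3.11.15. Alternatives were other scalings, pseudocounts, count minimums and fold limits.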

Additional observations from a re-analysis of the deposited data

Results flagged for a closer look

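Lyve1 had exercise changes of opposite sign with and without tumor. It was at 0.76 in E+&T- vs E-&T-, from 703 against 328 reads, and at −0.13 in E+&T+ vs E-&T+, from 1399 against 1894 reads. Mrc1 had tumor changes of opposite sign with and without exercise. It was at 1.14 in E-&T+ vs E-&T-, from 720 against 251 reads, and at −0.28 in E+&T+ vs E+&T-, from 240 against 353 reads. In each of these 4 comparisons the counting interval left out 0. With 1 library per group, neither difference was tested.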

How the results depend on the processing

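No paired analysis was possible because each group had 1 library. For the same reason no library could be left out. In E+&T- vs E-&T-, the count of 1 member called became 0 with a pseudocount of 4, 3 with no count minimum, 2 with a fold of 1.5 and 0 with a fold of 3, so the call of Timd4 rests on its place near the limit. In E-&T+ vs E-&T-, the 8 members called became 5 with a fold of 3, and the median of 1.35 became 0.59 with a minimum of 4 in both libraries, which leaves out Arg1 and Marco. In E+&T+ vs E-&T+, the median of −0.87 became −1.45 with the library total as the scale. In E+&T+ vs E+&T-, the 4 members called became 2 with a minimum of 4 in both libraries, and the median of −0.01 became −0.37 there and −0.73 with the library total. Of 120 values of single members under the alternatives, 17 moved beyond their counting interval, called values among them, and 5 changed sign. The 5 that changed sign were all values not called. These were 3 values of Folr2 and, with the library total in E+&T+ vs E+&T-, Cd68 (0.26 to −0.46) and Cd163 (0.71 to −0.01). The library total also ended the calls of Mrc1 in E-&T+ vs E-&T- (0.99) and Lyve1 in E+&T+ vs E+&T- (0.55), and added calls of Csf1r and Folr2 in both comparisons of E+&T+ and of Timd4 in E+&T+ vs E+&T-. Each member stood on 1 row, so the treatment of repeated symbols changed nothing. Depth limits Timd4, with 11 to 32 reads per library, and Arg1 and Marco in the tumor-free hearts, with 0 to 2.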
